A study of Mus musculus with 6 samples.

Results

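The mitochondrial carriers of the SLC25 family were examined in inguinal white fat (iWAT, a subcutaneous depot) of aged mice. Members were taken by name: protein-coding genes whose symbol is Slc25a followed by a number, without Slc25a1, Slc25a20 and Slc25a44. This gave 44 of the 54532 genes in the deposited count table, and 38 of the 44 passed the filter on low counts. The series holds 6 RNA-seq libraries of mice kept in the cold for 7 days, 3 treated with vehicle and 3 with estrogen. The cold exposure is common to both groups, so estrogen against vehicle is the one contrast. The strain, sex, age in weeks, ovarian status and estrogen dose are not given in the labels, nor whether each library came from a separate animal. P-values therefore cover only sample-to-sample spread, some of which may be technical. Throughout, values of a group are given in the order of its replicates 1, 2 and 3.

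The inner mitochondrial membrane is closed to most charged metabolites, and the SLC25 carriers are the proteins that let them across. Most carriers exchange one solute for another, for example ADP for ATP, malate for oxoglutarate or aspartate for glutamate, and so tie the respiratory chain and the tricarboxylic acid cycle to the cytosol. In adipose tissue they supply both fat synthesis, which draws on mitochondrial carbon, and heat production, whose best known effector Ucp1 is itself of the same protein family. A few members work outside the inner membrane, such as the peroxisomal Slc25a17 and the outer membrane protein Slc25a46.

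Libraries held 16046601 to 20736771 counts, at which 3 counts, taken as the detection floor, equal 0.130 to 0.209 CPM (each count divided by its library size and put on one scale, with sizes adjusted by the trimmed mean of M values, TMM). Adipocyte markers fitted the labelled tissue, with Adipoq between 838 and 2206 CPM. Estrogen replicate 1 stood apart by skeletal muscle RNA. Its 8 muscle markers summed to 7513 CPM, against 2.86 to 63.6 CPM in the other libraries, where Ckm and Pvalb were at 0 in vehicle replicate 1 and estrogen replicates 2 and 3. B cell markers were high in estrogen replicates 1 and 3 (151 and 98.97 CPM against 3.96 to 6.64 CPM), and mammary epithelial markers summed to at most 0.467 CPM. The 8 fibroblast and progenitor markers summed to 14896, 33798 and 11966 CPM with vehicle and to 5561, 8374 and 1216 CPM with estrogen, so the groups did not overlap. In bulk tissue, fewer cells of a type and less RNA per cell cannot be told apart.

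Per base of gene length, a handful of carriers made up most of the family's RNA. Slc25a5, an ADP/ATP exchanger of the inner membrane, had the highest level, with a mean of 245 RPKM (CPM per kilobase of gene length) with vehicle and 305 RPKM with estrogen. It took 24.5% of the family's summed RPKM on average over the 6 libraries. Slc25a10 (the dicarboxylate carrier), Slc25a4 (the ADP/ATP exchanger of muscle and heart), Slc25a3 (the phosphate carrier) and Slc25a39 (a glutathione carrier) followed with 14.0, 10.5, 9.03 and 8.34%. These 5 genes together held 66.4%, and the NAD carrier Slc25a51 and the oxoglutarate/malate carrier Slc25a11 brought the sum to 75.6%. The order and shares depend on the deposited gene lengths. In CPM, the vehicle means were 509 for Slc25a3, 416 for Slc25a10 and 404 for Slc25a5. At the other end, the liver isoform of the aspartate/glutamate carrier, Slc25a13, was at 0.725 RPKM with vehicle, and the glutamate carrier Slc25a18 at 0.144 RPKM.

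**Figure D1:**
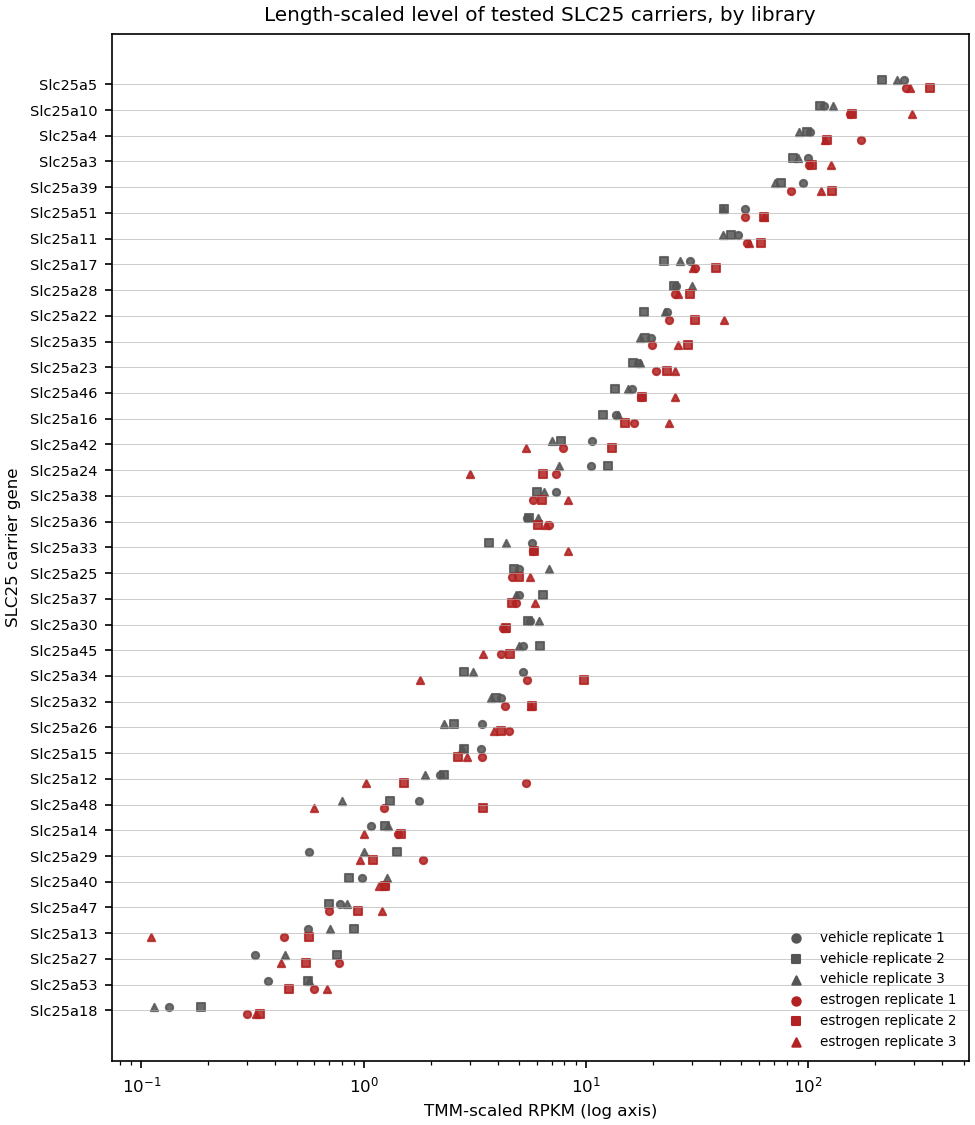
Length-scaled level of the tested carriers named here (TMM-scaled RPKM on a log axis, 1 point per library, vehicle in grey and estrogen in red). Slc25a5 lies highest at means of 245 and 305 RPKM, and Slc25a18 lowest at 0.144 and 0.323 RPKM.

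Of the 6 members that were too low to test, Slc25a41 and Slc25a54 had 0 counts in every library, so no more can be said than that they lay under the floor. Slc25a2 had 1, 0 and 1 counts with vehicle and 1, 4 and 1 with estrogen, and the oxodicarboxylate carrier Slc25a21 had 0, 7 and 8 against 4, 10 and 6. Slc25a31, the ADP/ATP carrier of the germ line, had 2, 15 and 14 counts with vehicle and 0, 1 and 0 with estrogen. Slc25a43 had 10, 13 and 9 counts against 5, 5 and 3. For the last pair of genes every estrogen library lay below every vehicle library (all tested genes 14.7%), at counts that the filter leaves out. For Slc25a2 every estrogen library lay above in CPM (all tested genes 12.8%). The vehicle counts of Slc25a2 and that of Slc25a31 in vehicle replicate 1 lay under the floor of 3 counts, so their separation cannot be measured.

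More carriers lay on the higher side with estrogen than among genes at large, and the shifts were small. Of the 38 tested members, 31 had a positive log2 fold change (estrogen over vehicle) and 7 a negative one, with a median of 0.31. Of all 15591 tested genes 50.3% were positive, with a median of 0.0025. The family's summed CPM was 3414, 2989 and 3124 with vehicle and 3723, 4161 and 4533 with estrogen, so the groups did not overlap. When counts were scaled by library totals alone, the median of all genes moved to -0.17 and that of the carriers to 0.15, with 26 positive and 12 negative.

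No single carrier passed the test. By edgeR's quasi-likelihood test 0 members, and 0% of all genes, had an adjusted p under 0.05, and the smallest adjusted p among the carriers was 0.207. At an unadjusted p under 0.05, 12 of 38 members (31.6%) were higher, against a background of 9.49% of all genes, and 3 (7.89%) were lower, against 10.9%. The lower count is thus near the background. In TMM-scaled CPM, every estrogen library lay above every vehicle library for 16 members (42.1%; all genes 12.8%) and below for 3 (7.89%; all genes 14.7%). How many keep this separation with library totals was not counted, and some do not. Slc25a35 and Slc25a33 had 1414 and 212 of 19102059 counts in vehicle replicate 1. They had 1411 and 210 of 19263623 counts in estrogen replicate 1, a smaller part of the total. DESeq2 called 1 member, Slc25a23, higher (all genes 2.62%) and 0 lower (all genes 3.14%), and at an unadjusted p under 0.05 it gave 13 higher (all genes 10.6%) and 3 lower (all genes 11.2%).

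The count of 12 rested on the full set of libraries. It was 2 without vehicle replicate 3, 3 without vehicle replicate 2, 6 without estrogen replicate 2 and 7 without estrogen replicate 3, where the background was 6.27, 4.01, 9.49 and 7.02%. Without the muscle-bearing estrogen replicate 1 it was 11 (all genes 9.08%), and without both estrogen replicates 1 and 3 it was also 11 (all genes 5.5%), the lone estrogen library then being assumed to vary as the vehicle libraries do. The lower count was 1 without vehicle replicate 1, 1 without vehicle replicate 2 and 0 without both estrogen replicates 1 and 3, where 8.83, 5.04 and 4.14% of all genes were lower. With library totals alone as the scaling, 2 carriers were higher and 3 lower, against 3.78 and 19.1% of all genes. The median of the carriers stayed between 0.26 and 0.33 when any 1 library was left out.

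**Figure D2:**
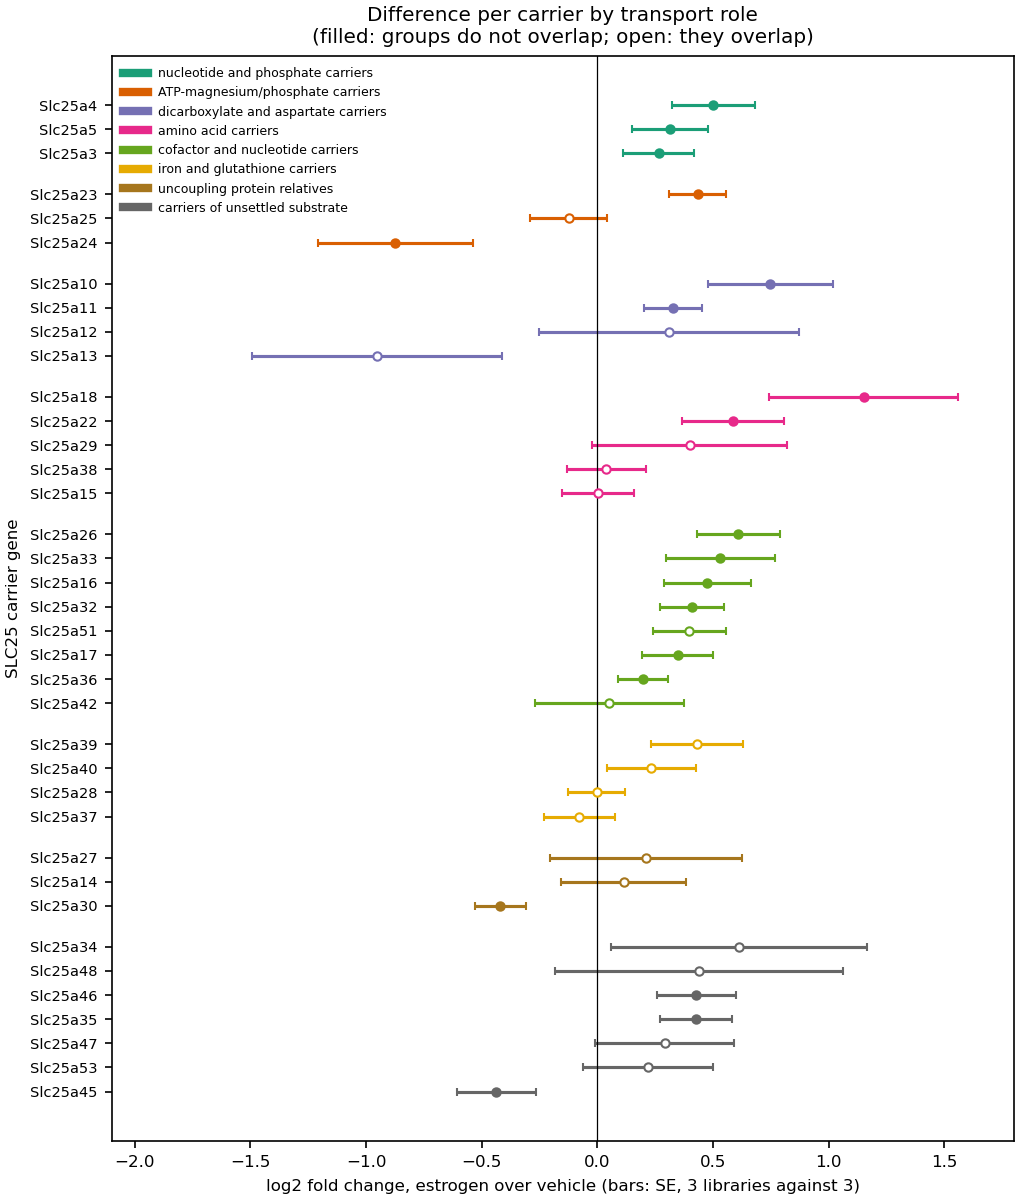
Log2 fold change of the tested carriers named here, estrogen over vehicle, with its standard error (3 libraries against 3), grouped by transport role. Filled points mark the 19 carriers whose groups do not overlap with TMM scaling. With that scaling the cofactor and nucleotide group holds only positive values, from 0.05 for Slc25a42 to 0.61 for Slc25a26.

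The ADP/ATP and phosphate carriers bring the substrates of ATP synthase into the matrix and take ATP out. With TMM scaling all 3 tested members lay higher in every estrogen library than in any vehicle library (all genes 12.8%). An unadjusted p under 0.05 was found for 1 of them (all genes 9.49%). For Slc25a5 and Slc25a3 the separation depends on that scaling. In vehicle replicate 1 they had 8774 and 10917 of 19102059 counts. In estrogen replicate 1 they had 8724 and 10786 of 19263623 counts, a smaller part of the library total. Slc25a5 (ENSMUSG00000016319, chromosome X, 36795651 to 36798807, mm10) was at 446, 353 and 413 CPM with vehicle and at 452, 579.9 and 475 CPM with estrogen. Estrogen replicate 1 lay just above vehicle replicate 1, the highest of its group, and the log2 fold change was 0.32 ± 0.16 (SE; edgeR adjusted p = 0.306) and 0.199 without estrogen replicate 2. Slc25a3, the phosphate carrier (chromosome 10, 91116574 to 91124059), was at 555, 473 and 501 CPM against 559, 577 and 699.5 CPM, a log2 fold change of 0.26 ± 0.15 (edgeR adjusted p = 0.350) and 0.16 without estrogen replicate 3.

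Slc25a4 (chromosome 8, 46206797 to 46211284) was at 240, 233 and 213 CPM with vehicle and at 405, 287 and 279 CPM with estrogen. The highest value was that of estrogen replicate 1, the library with muscle RNA, and Slc25a4 is the isoform of skeletal muscle. The log2 fold change was 0.50 ± 0.18 with all libraries (edgeR adjusted p = 0.212) and 0.30 without estrogen replicate 1. Estrogen replicates 2 and 3, whose muscle markers summed to 4.52 and 2.86 CPM, lay above all vehicle libraries, and the part of muscle RNA in the Slc25a4 values was not tested. The ratio of Slc25a4 to Slc25a5 was 0.377, 0.463 and 0.361 with vehicle and 0.627, 0.346 and 0.411 with estrogen, so estrogen replicate 1 alone lay outside the range of the vehicle libraries on the higher side.

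The calcium-regulated carriers that exchange ATP-magnesium for phosphate set the size of the matrix adenine nucleotide pool. Of the 3 tested members 1 had a positive and 2 a negative log2 fold change, and none passed edgeR's adjusted threshold. Slc25a23 (chromosome 17, 57043711 to 57059863) was at 91.1, 86.5 and 93.1 CPM with vehicle and at 109.8, 122 and 133 CPM with estrogen. The groups were well apart, with an SD of 0.054 log2 units among the vehicle libraries. Its log2 fold change was 0.43 ± 0.12 (edgeR adjusted p = 0.207; DESeq2 adjusted p = 0.0341), and it lay between 0.37 and 0.49 with any 1 library left out.

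Slc25a24 (chromosome 3, 109123149 to 109168457) was at 36.3, 43.2 and 25.9 CPM with vehicle and at 25.1, 21.9 and 10.3 CPM with estrogen. The groups did not overlap, but vehicle replicate 3 and estrogen replicate 1 nearly met. The log2 fold change was -0.87 ± 0.34 (edgeR adjusted p = 0.222), and -0.57 without estrogen replicate 3, where the fibroblast markers were lowest. Slc25a25, another carrier of this kind, was at 39.2, 37.2 and 53.8 CPM against 36.5, 39.2 and 43.9 CPM, with overlapping groups and a log2 fold change of -0.12 ± 0.17.

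Set against each other per base of length, Slc25a23 exceeded Slc25a24 by 1.62, 1.30 and 2.33 times with vehicle and by 2.83, 3.61 and 8.39 times with estrogen. This was the 1 of 9 compared pairs of carriers with related substrates whose groups did not overlap. The log2 ratio was 1.38 higher with estrogen (exact permutation test, two-sided, p = 0.1, the smallest that 3 against 3 can give; adjusted over the 9 pairs, p = 0.675), and 0.91 higher without estrogen replicate 3. The other 8 pairs had exact p from 0.2 to 0.7.

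**Figure D3:**
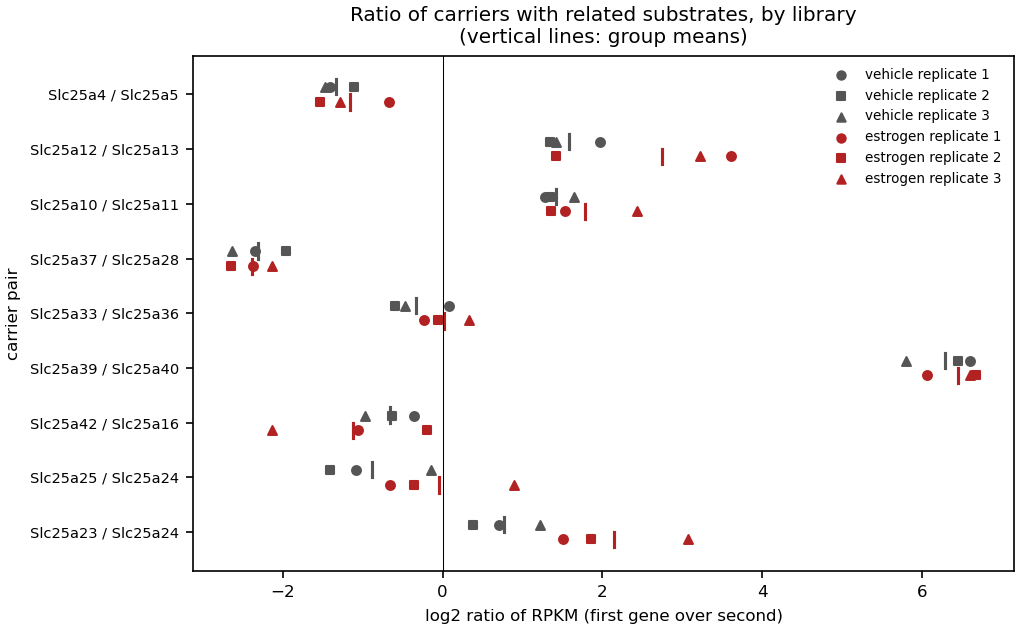
Log2 ratio of RPKM between carriers with related substrates, 1 point per library and a vertical line at each group mean. The estrogen libraries of Slc25a23 over Slc25a24 lie above all vehicle libraries, while for Slc25a4 over Slc25a5 and for Slc25a12 over Slc25a13 estrogen replicate 1 lies farthest to the right.

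The windows before the start sites of the carriers with the highest level (Slc25a5 and Slc25a10), of the pair whose ratio did not overlap between groups (Slc25a23 and Slc25a24) and of the carrier with the smallest p (Slc25a30) are printed to show what sequence precedes genes with fold changes of either sign. Each holds the 250 bases before the RefSeq start site (GRCm38.p6, the assembly of mm10), 5′ to 3′ on the gene's strand, with GC boxes (GGGCGG or its complement on the other strand) and CCAAT boxes (CCAAT, either strand) in capitals. The windows are chrX:36795347-36795596 (plus strand), chr11:120491587-120491836 (plus), chr17:57059864-57060113 (minus), chr3:109122899-109123148 (plus) and chr14:75787038-75787287 (minus).
Slc25a5: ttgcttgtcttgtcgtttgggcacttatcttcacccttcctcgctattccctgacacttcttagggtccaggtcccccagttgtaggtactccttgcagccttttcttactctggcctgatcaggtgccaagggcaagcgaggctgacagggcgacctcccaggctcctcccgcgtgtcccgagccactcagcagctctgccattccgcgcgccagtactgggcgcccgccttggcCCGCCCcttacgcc
Slc25a10: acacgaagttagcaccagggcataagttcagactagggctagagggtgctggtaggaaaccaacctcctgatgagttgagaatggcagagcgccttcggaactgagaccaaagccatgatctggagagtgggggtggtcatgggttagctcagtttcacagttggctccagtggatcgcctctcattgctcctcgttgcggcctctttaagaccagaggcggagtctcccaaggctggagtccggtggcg
Slc25a23: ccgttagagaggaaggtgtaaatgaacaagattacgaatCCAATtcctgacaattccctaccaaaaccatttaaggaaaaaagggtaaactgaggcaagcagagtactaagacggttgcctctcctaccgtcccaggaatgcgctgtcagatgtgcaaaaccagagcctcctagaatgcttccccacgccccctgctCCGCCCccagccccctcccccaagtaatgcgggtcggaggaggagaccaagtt
Slc25a24: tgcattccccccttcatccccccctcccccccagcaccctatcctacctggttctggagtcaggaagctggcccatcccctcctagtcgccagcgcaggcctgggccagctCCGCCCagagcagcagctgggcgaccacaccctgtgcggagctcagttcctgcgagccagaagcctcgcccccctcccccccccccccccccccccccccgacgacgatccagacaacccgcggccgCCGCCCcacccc
Slc25a30: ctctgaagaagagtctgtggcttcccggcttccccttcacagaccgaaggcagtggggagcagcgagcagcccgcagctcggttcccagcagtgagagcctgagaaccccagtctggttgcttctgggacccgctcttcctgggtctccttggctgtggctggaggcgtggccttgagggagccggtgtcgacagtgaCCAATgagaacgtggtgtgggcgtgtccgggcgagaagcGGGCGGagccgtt

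GC boxes were present in most promoter windows of the carriers. In windows of 250 bases before to 50 after the start site, 34 of the 44 members were matched by symbol, with 44 windows in all because some genes have several. Of these windows 36 (81.8%) held a GC box, against 35.7% of all 32851 promoter windows, and 21 (47.7%) held a CCAAT box, against 37.4%. All windows include those of genes not detected here, and the shares among tested genes were not computed. The palindromic estrogen response element (GGTCA and TGACC with any 3 bases between them; 0.07% of all windows), the estrogen-related receptor element TCAAGGTCA (0.423%) and the NRF1 core CGCATGCGC (1.75%) were each found in 0 of the 44 windows. The sterol element core TCACNCCAC was found in 1 (2.27%), that of Slc25a18, against 1.24% of all windows. In the printed stretches, which leave out the 50 bases after the start site, Slc25a24 holds 2 GC boxes. There Slc25a5, Slc25a23 and Slc25a30 hold 1 each, and Slc25a10 holds 0. With those 50 bases included, Slc25a10 is among the members with a GC box and with a CCAAT box. Slc25a23 and Slc25a24 thus both have a GC box, and these letters say nothing of which factor binds there.

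The carriers of dicarboxylates and of the malate-aspartate shuttle link matrix and cytosolic carbon and reducing power. Slc25a10, which exchanges malate or succinate for phosphate (ENSMUSG00000025792, chromosome 11, 120491840 to 120499187), was at 407.5, 391.6 and 448 CPM with vehicle and at 534, 545 and 1015 CPM with estrogen. All estrogen libraries lay above all vehicle libraries, and estrogen replicate 3 lay far above the other two. The log2 fold change was 0.75 ± 0.27 (edgeR adjusted p = 0.212), the highest of the carriers above 1 CPM, and it was 0.38 without estrogen replicate 3. Slc25a11, the oxoglutarate/malate carrier, was at 103, 94.9 and 87.8 CPM against 113, 130.2 and 115 CPM, a log2 fold change of 0.33 ± 0.12 (edgeR adjusted p = 0.220). Its reads cannot be told from those of Rnf167, which overlaps it on the other strand, because the strand setting of the counting is not given.

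Slc25a12, the aspartate/glutamate carrier of muscle and brain, was at 16.2, 16.95 and 13.9 CPM with vehicle and at 39.3, 11.2 and 7.52 CPM with estrogen. Its estrogen libraries lay on both sides of the vehicle range, with the muscle-bearing estrogen replicate 1 highest. The log2 fold change was 0.31 ± 0.56 with all libraries and -0.75 without estrogen replicate 1. Slc25a13, its partner in liver, was at 2.13, 3.44 and 2.69 CPM against 1.66, 2.16 and 0.418 CPM, a log2 fold change of -0.95 ± 0.54 with overlapping groups, and -0.53 without estrogen replicate 3. Of the 6 listed enzymes of the malate-aspartate and glycerol phosphate shuttles, 4 were higher at an unadjusted p under 0.05 and 0 lower (all genes 9.49% higher and 10.9% lower). Cytosolic malate dehydrogenase, Mdh1, was at 669, 549 and 599 CPM with vehicle and at 780.5, 957 and 1575 CPM with estrogen (log2 fold change 0.87).

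Of 5 tested amino acid carriers, 2 were higher at an unadjusted p under 0.05 and 0 lower (all genes 9.49% higher and 10.9% lower). Slc25a22, a glutamate carrier, was at 138, 109.7 and 136 CPM with vehicle and at 142, 185 and 250.2 CPM with estrogen, a log2 fold change of 0.59 ± 0.22 (edgeR adjusted p = 0.218) and 0.35 without estrogen replicate 3. Slc25a18, the other glutamate carrier, had 5, 7 and 5 counts against 11, 10 and 9 counts. Its log2 fold change of 1.15 rests on these few counts, and it overlaps the abundant Atp6v1e1 on the other strand. The ornithine carrier Slc25a15 (0.0032 ± 0.15) and the glycine carrier Slc25a38 (0.04 ± 0.17) had log2 fold changes near 0, with overlapping groups, and both were negative with library totals as the scaling (-0.16 and -0.14). The basic amino acid carrier Slc25a29 was at 1.47, 3.69 and 2.60 CPM against 4.82, 2.88 and 2.51 CPM.

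The carriers of cofactors and nucleotides feed enzymes of the matrix. All 9 were positive, with a median log2 fold change of 0.40, 4 had an unadjusted p under 0.05 (all genes 9.49%), and the groups did not overlap for 6 (all genes 12.8%). With library totals as the scaling not all were positive, Slc25a42 being at -0.099. Slc25a26, which imports S-adenosylmethionine (chromosome 6, 94500331 to 94604672), was at 16.4, 12.2 and 11.0 CPM with vehicle and at 21.7, 20.04 and 18.6 CPM with estrogen. Its estrogen libraries were close together and clear of the vehicle range, with a log2 fold change of 0.61 ± 0.18 (edgeR adjusted p = 0.207), though the more abundant Lrig1 overlaps it on the other strand. Slc25a32, linked to the import of folate and flavin, was at 25.3, 23.9 and 22.8 CPM against 26.3, 34.8 and 34.5 CPM, a log2 fold change of 0.41 ± 0.14.

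Slc25a51, which imports NAD, was at 287, 231 and 227 CPM with vehicle and at 285.5, 348 and 348 CPM with estrogen. Estrogen replicate 1 lay within the vehicle range (log2 fold change 0.40 ± 0.16). Slc25a16, tied to coenzyme A in the matrix, was at 65.3, 57.2 and 66.8 CPM against 78.7, 71.6 and 112.9 CPM (0.48 ± 0.19, and 0.25 without estrogen replicate 3). The pyrimidine nucleotide carriers Slc25a33 and Slc25a36 had log2 fold changes of 0.53 ± 0.24 (0.35 without estrogen replicate 3) and 0.196 ± 0.11. Both were without overlap in TMM-scaled CPM, and the peroxisomal Slc25a17 had a log2 fold change of 0.35 ± 0.15. Of 7 coenzyme A synthesis enzymes 3 were higher at an unadjusted p under 0.05 and 0 lower (all genes 9.49% higher and 10.9% lower). Of 9 mitochondrial one-carbon enzymes 1 was higher and 1 lower, which is near the background. Of 10 genes of mitochondrial nucleotide and genome upkeep 2 were higher at the same threshold (all genes 9.49%), Tfb2m (0.49) and Tfam (0.30), both factors of mitochondrial transcription.

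The iron and glutathione carriers did not separate the groups. The mitoferrins, which bring iron in for heme and iron-sulfur clusters, had log2 fold changes of -0.08 ± 0.15 for Slc25a37 and -0.0028 ± 0.12 for Slc25a28. Slc25a37 was at 30.1, 38.5 and 29.2 CPM with vehicle and at 29.1, 28.02 and 35.5 CPM with estrogen, and Slc25a28 was at 38.5, 37.8 and 45.6 CPM against 37.9, 44.4 and 39.4 CPM. Downstream, 10 of 15 listed genes of heme and iron-sulfur synthesis were higher at an unadjusted p under 0.05 and 0 lower (all genes 9.49% higher and 10.9% lower), among them the cluster assembly genes Isca2 (0.45) and Isca1 (0.46) and the cysteine desulfurase Nfs1 (0.39). The difference between the carriers and these enzymes was not tested. The glutathione carriers Slc25a39 and Slc25a40 had log2 fold changes of 0.43 ± 0.20 and 0.23 ± 0.19 with overlapping groups, and Slc25a39 exceeded Slc25a40 by 55.95 to 102.7 times per base of length in the 6 libraries.

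Slc25a30, a relative of the uncoupling proteins (chromosome 14, 75760117 to 75787037), had the smallest unadjusted p of all carriers. It was at 25.6, 25.2 and 28.2 CPM with vehicle and at 19.3, 20.04 and 19.7 CPM with estrogen. All estrogen libraries lay below all vehicle libraries, and the estrogen libraries differed from each other by an SD of only 0.028 log2 units. The log2 fold change was -0.42 ± 0.11 (edgeR adjusted p = 0.207), and it lay between -0.45 and -0.37 with any 1 library left out. The other relatives, Slc25a14 and Slc25a27, had 0.11 ± 0.27 (-0.047 with library totals as the scaling) and 0.21 ± 0.41.

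Among the 7 tested carriers whose substrate is less settled or that act at the outer membrane, 2 were higher and 1 lower at an unadjusted p under 0.05 (all genes 9.49% higher and 10.9% lower). Slc25a35 was at 71.9, 67.7 and 64.6 CPM with vehicle and at 73.1, 105 and 95.9 CPM with estrogen (0.43 ± 0.16), and Slc25a46 at 70.3, 59.3 and 67.5 CPM against 77.3, 78.3 and 109.6 CPM (0.43 ± 0.17, and 0.25 without estrogen replicate 3). Slc25a45 was at 13.8, 16.4 and 13.3 CPM against 10.9, 12.1 and 9.12 CPM (-0.44 ± 0.17). In all 3 the groups did not overlap in TMM-scaled CPM. Slc25a34 and Slc25a48 overlapped between groups and varied widely with estrogen, and Slc25a47 and Slc25a53 had 0.29 ± 0.30 and 0.22 ± 0.28.

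Levels of several carriers are set beside those of adipocyte and fibroblast markers. Adipoq, an adipocyte gene, was at 1026, 838 and 1200 CPM with vehicle and at 1322, 1214 and 2206 CPM with estrogen, and the fibroblast marker sum ran the opposite way. Of the 8 listed adipocyte markers, 6 had a positive and 2 a negative log2 fold change. By edgeR 0 of them had an unadjusted p under 0.05 (all genes 9.49% higher and 10.9% lower). Estrogen lay above vehicle without overlap for 2 (all genes 12.8%), so Adipoq does not stand for the whole list. Slc25a10, Slc25a16, Slc25a22 and Slc25a46 were highest in estrogen replicate 3, which was highest in Adipoq and lowest in fibroblast markers. Slc25a24 and Slc25a45 were lowest in that library and highest in vehicle replicate 2, the library richest in fibroblast markers. Among all tested genes, 28.6% were highest and 29.4% lowest in estrogen replicate 3, and 22.3% were highest in vehicle replicate 2.

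Over the 6 libraries, on log2(CPM + 0.5), 114 relations were computed (38 carriers against Adipoq, the fibroblast marker sum and Ucp1), a set chosen after the values were seen. Slc25a16 and Adipoq had a Pearson r of 0.987 (exact permutation p = 0.00139, adjusted p = 0.0396) and a Spearman rho of 1 (exact p = 0.00278, adjusted p = 0.0633), with r = 0.859 after leaving out vehicle replicate 2 and estrogen replicate 3, the libraries farthest from the median. Slc25a45 and the fibroblast sum had r = 0.985 (exact permutation p = 0.00139, adjusted p = 0.0396) and rho = 1 (exact p = 0.00278, adjusted p = 0.0633), with r = 0.999 without those libraries. For Slc25a10 and Adipoq r was 0.966 (exact permutation p = 0.00278, adjusted p = 0.0528) and rho 0.943 (exact p = 0.0167, adjusted p = 0.146), with r = 0.841 without them. For Slc25a24 and the fibroblast sum r was 0.965 (exact permutation p = 0.00417, adjusted p = 0.0576) and rho 0.943 (exact p = 0.0167, adjusted p = 0.146), with r = 0.679 without them. The relations of Slc25a22 and Slc25a46 with Adipoq rest on those libraries, with r falling from 0.914 to 0.214 and from 0.968 to 0.536 (exact permutation p = 0.0111 and 0.00833, adjusted p = 0.0745 and 0.0731, and rho 0.886 for both, exact p = 0.0333, adjusted p = 0.158). The same carriers were also related to the other measure. With the fibroblast sum, r was -0.993 for Slc25a16, -0.963 for Slc25a10, -0.9155 for Slc25a22 and -0.9815 for Slc25a46. Without those libraries it was -0.993, -0.895, -0.303 and -0.793. With Adipoq, r was -0.981 for Slc25a24 and -0.962 for Slc25a45, and -0.827 and -0.880 without them. Carriers not chosen above also had such relations, among them Slc25a23 and Slc25a13. Their r with the fibroblast sum was -0.887 and 0.967 (exact permutation p = 0.00556, adjusted p = 0.0576 for both). It was -0.742 and 0.724 without those libraries. Their r with Adipoq was 0.856 and -0.9545, and 0.621 and -0.378 without them. Which measure a carrier follows was not tested. The estrogen libraries lie at one end of both marker measures and the vehicle libraries at the other, and relations within the groups were not tested.

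**Figure D4:**
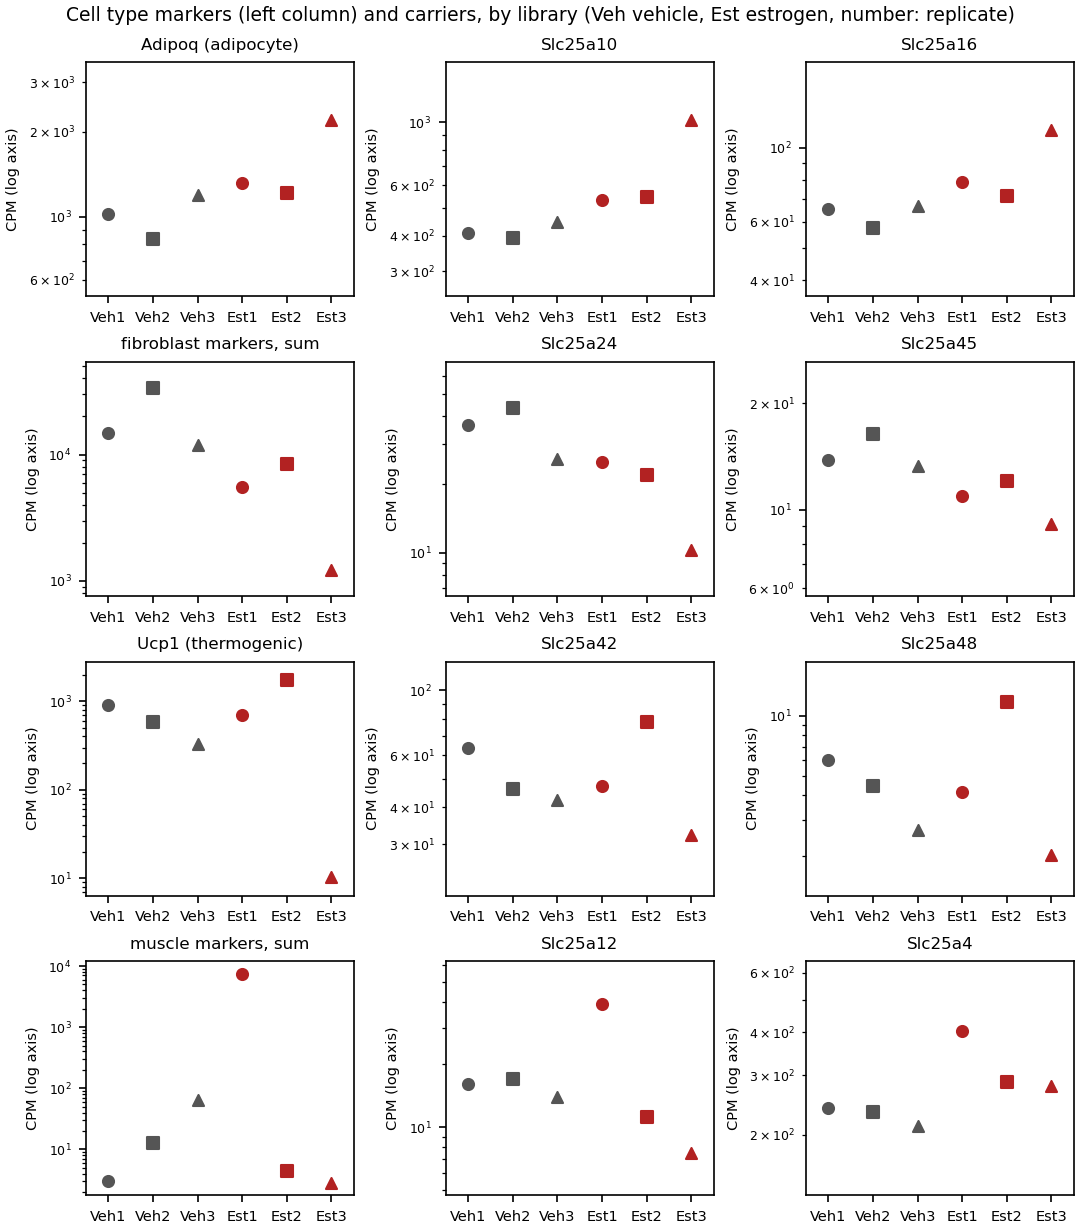
Level of cell type markers (left column) and of carriers beside them, in CPM on a log axis, 1 point per library (grey vehicle, red estrogen). Slc25a24 and Slc25a45 are lowest in estrogen replicate 3, where the fibroblast sum is 1216 CPM, Slc25a42 and Slc25a48 are highest in estrogen replicate 2, where Ucp1 is 1754 CPM, and Slc25a12 and Slc25a4 are highest in estrogen replicate 1, where the muscle sum is 7513 CPM.

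For 3 carriers with overlapping groups, chosen after their values were seen, levels are set beside those of Ucp1, and none of these relations passed adjustment. Ucp1, the uncoupling protein of thermogenic adipocytes, was at 907, 589 and 333 CPM with vehicle and at 695.5, 1754 and 10.2 CPM with estrogen. Slc25a42, a coenzyme A carrier, was at 63.7, 46.1 and 42.4 CPM against 47.4, 78.2 and 32.1 CPM, the same order of libraries as for Ucp1. Slc25a48 was at 5.996, 4.45 and 2.69 CPM against 4.15, 11.7 and 2.02 CPM. Slc25a34 was at 13.9, 7.54 and 8.24 CPM against 14.5, 26.1 and 4.81 CPM. In all 3 the highest library was estrogen replicate 2 (12.9% of all genes) and the lowest was estrogen replicate 3 (29.4% of all genes). The estrogen libraries thus spanned the whole vehicle range.

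Slc25a42 and Ucp1 had r = 0.854 (exact permutation p = 0.00972, adjusted p = 0.0745) and rho = 1 (exact p = 0.00278, adjusted p = 0.0633), with r = 0.842 after leaving out estrogen replicates 2 and 3. The corresponding r was 0.829 for Slc25a34 and 0.806 for Slc25a48, with exact permutation p of 0.025 and 0.0625 and adjusted p of 0.136 and 0.274. Their rho was 0.886 and 0.943, with exact p of 0.0333 and 0.0167 and adjusted p of 0.158 and 0.146, and r without estrogen replicates 2 and 3 was 0.720 and 0.963. Their fold changes depended on single libraries. Slc25a48 had a log2 fold change of 0.44 ± 0.62, which was -0.495 without estrogen replicate 2 and 0.86 without estrogen replicate 3. Slc25a34 had 0.61 ± 0.55, which was -0.03 and 1.04 in the same cases, and Slc25a42 had 0.05 ± 0.32, with -0.35 without estrogen replicate 2.

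Family members that carry other names showed both directions. Ucp2, an uncoupling protein abundant in immune cells, was at 271, 273 and 208 CPM with vehicle and at 165, 196 and 142 CPM with estrogen, without overlap (log2 fold change -0.58 ± 0.18, edgeR adjusted p = 0.207). All 7 macrophage markers had negative fold changes, with sums of 2273, 2789 and 1973 CPM against 1235, 1488 and 457 CPM, and their part in the Ucp2 values was not tested. Mtch2, an insertase of the outer membrane, was at 304, 240.4 and 245 CPM against 316, 369 and 385 CPM (0.44 ± 0.16), while Ucp3 (0.62 ± 0.31), Mtch1 (-0.12 ± 0.16) and Ucp1 (0.43 ± 1.25) had overlapping groups.

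Other transporters of the inner membrane were taken from a list of 20 genes. Of these, 14 were positive, with a median of 0.16, and 4 were higher and 2 lower at an unadjusted p under 0.05 (all genes 9.49% higher and 10.9% lower), so the lower count is near the background. DESeq2 called 2 higher and 1 lower (all genes 2.62 and 3.14%). The pyruvate carrier genes Mpc2 (339, 259 and 281 against 377, 546 and 467 CPM) and Mpc1 (125.5, 85.4 and 87.5 against 129.7, 183 and 183 CPM) were those that DESeq2 called higher (adjusted p = 0.0335 and 0.0426). Mcub, an inhibitory subunit of the calcium uniporter that macrophages also express, was at 30.0, 22.7 and 13.5 CPM against 8.55, 9.17 and 2.65 CPM and was the one called lower (adjusted p = 0.0219). The 3 outer membrane channels, Vdac1, Vdac2 and Vdac3, lay higher in every estrogen library than in any vehicle library (all genes 12.8%). Their log2 fold changes were 0.53, 0.31 and 0.24. Whether the carriers differ as a family from these transporters was not tested.

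The spread among replicates varied widely between carriers. The median SD of log2 CPM was 0.179 in the vehicle group and 0.278 in the estrogen group over the 38 carriers, and 0.206 and 0.258 over all tested genes. It was larger with estrogen for 23 of 38 carriers (60.5%) and for 62.4% of all genes. Within the estrogen group the SD ran from 0.028 for Slc25a30 to 1.24 for Slc25a48, Slc25a12 (1.24) and Slc25a34 (1.22) coming next. Of the 38 carriers 12 had their highest level in estrogen replicate 2 and 11 in estrogen replicate 3 (31.6 and 28.9%, against 12.9 and 28.6% of all genes), and 0 in vehicle replicate 1 (15.1% of all genes).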

How the data were processed

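RNA was extracted from iWAT and libraries were made by a service company, per the labels' protocols. The table that the authors deposited holds unnormalized read counts for each gene, with symbols, coordinates and gene lengths. Reads were aligned with HISAT2 and counted with featureCounts on mm10, per the submitters' processing notes. The sources used here give no versions, strand setting or handling of multi-mapping reads. Titles gave the groups and replicate numbers, and table columns were matched through the sample descriptions.

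All 54532 genes entered 1 edgeR 4.0.16 analysis (R 4.3.3): TMM factors, filterByExpr, which kept 15591 genes, and the quasi-likelihood F test, two-sided, with p-values adjusted by Benjamini-Hochberg over the 15591 genes, a threshold of 0.05 and no replicate block. Standard errors come from the F statistic. CPM and RPKM were computed with TMM-scaled library sizes and the deposited gene lengths. Relations use log2(CPM + 0.5), and SDs of log2 CPM use a prior count of 2. DESeq2 1.42.0 and limma 3.58.1 (voom) were alternatives, beside other scalings and filters, a replicate block, and fits that each lack 1 library. Leaving out both estrogen replicates 1 and 3 was added after seeing the data. The edgeR test was also run on simulated counts, and no result of that run is used here. Libraries of the same group all differed by more than sampling noise (chi-square per degree of freedom 45.9 to 98.1).

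The members, the gene lists and the pairs were chosen with earlier results of these data known. Members given in full are the 5 of highest RPKM, up to 8 per direction of smallest unadjusted p, and the 9 pairs; other carriers are given by their values. The counts cover all tested carriers, 1 of which is not reported here by name or in the figures. Slc25a34, Slc25a48 and the relations with markers were singled out after their values were seen. Promoter windows are RefSeq's (GRCm38.p6), and motifs were searched on both strands.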

Additional observations from a re-analysis of the deposited data

How the results depend on the processing

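With library totals as the scaling, 2 carriers were higher at an unadjusted p under 0.05 (all genes 3.78%). The median of the carriers was then 0.15 and that of all genes -0.17. What lowers the count with that scaling was not tested. DESeq2 called 1 carrier, Slc25a23 (0.44). Without both estrogen replicates 1 and 3, 0 were lower. With 1 library left out, the count at an unadjusted p under 0.05 ran from 2 to 11 higher and from 1 to 3 lower, the median from 0.26 to 0.33, and 0 passed adjustment in each case. Whether equal replicate numbers pair the samples is not known from the labels and was not tested. The correlation of same-numbered deviations was -0.12, 0.16 and 0.29, and the others ran from -0.36 to 0.17. The numbers are those of the titles, and the columns of replicate 2 carry different sample numbers in the vehicle and estrogen groups. With the replicate block 8 were higher (all genes 8.6%) and 3 lower (all genes 12.6%), with a median of 0.26 and 0 past adjustment. Among the values of single carriers and pairs under other settings, 439 kept their direction and side of the threshold. A further 25 reversed in sign and 1, Slc25a23 with DESeq2, passed the threshold. Keeping the side shows little, because the exact p of a pair cannot fall under 0.1. The ratios of the pairs are also the same with library totals by construction.

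The following signs reversed, and the cause was not tested. Slc25a28, at -0.0028, was at 0.0072 with RLE scaling, 0.037 with upper-quartile scaling, 0.0066 with DESeq2 and 0.13 without both estrogen replicates 1 and 3, and ran from -0.072 (without estrogen replicate 2) to 0.087 (without vehicle replicate 3). Slc25a42 was at -0.099 with library totals, -0.019 with limma-voom and -0.024 with the replicate block, and ran from -0.35 (without estrogen replicate 2) to 0.31 (without estrogen replicate 3). Slc25a34 ran from -0.033 to 1.036 and Slc25a48 from -0.495 to 0.86, each lowest without estrogen replicate 2 and highest without estrogen replicate 3. Slc25a12 was at -0.055 with the replicate block and -0.47 without both estrogen replicates 1 and 3, and ran from -0.75 (without estrogen replicate 1) to 0.69 (without estrogen replicate 3). With 1 library left out Slc25a37 ran from -0.19 to 0.058 and Slc25a25 from -0.22 to 0.057. Among the log2 ratios, Slc25a4 over Slc25a5 ran from -0.077 (without estrogen replicate 1) to 0.35, Slc25a37 over Slc25a28 from -0.23 to 0.101, Slc25a39 over Slc25a40 from -0.073 (without vehicle replicate 3) to 0.36, and Slc25a42 over Slc25a16 from -0.94 to 0.032 (without estrogen replicate 3). Depth limits carriers with few counts, among those tested foremost Slc25a18.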
